A study of Mus musculus with 7 samples.

Results

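Hepatic expression of 9 genes of de novo fatty acid synthesis and its NADPH supply was examined in mice treated with a synthetic tsRNA-Glu-CTC oligonucleotide. The 9 genes were Slc25a1, Acly, Acss2, Acaca, Acacb, Fasn, Me1, Thrsp and Mlxipl. They were taken by symbol, with earlier results of these data known, and each matched 1 row of the 21706 gene symbols in the liver table. RNA-seq had been performed on livers of wild-type C57BL/6 male mice that were 8 weeks old and received a control oligo (4 libraries, controls 1 to 4) or tsRNA-Glu-CTC Oligo-1 (3 libraries, here oligo-1 livers 1 to 3) for 2 weeks by intraperitoneal injection. tsRNA-Glu-CTC is a small RNA derived from the transfer RNA for glutamate. Per the methods of the study, all mice ate a low-fat, low-cholesterol semisynthetic diet and were fasted for some hours before tissue collection. Each library represents the whole liver RNA of 1 mouse, so hepatocytes and other liver cells were measured together. In such bulk samples, fewer cells of a type and less RNA per cell cannot be told apart.

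De novo fatty acid synthesis turns surplus carbohydrate into palmitate. Citrate made in mitochondria is exported to the cytosol by the carrier Slc25a1 and split by ATP citrate lyase (Acly) into acetyl-CoA, which acetyl-CoA synthetase (Acss2) also makes from acetate. The acetyl-CoA carboxylases Acaca and Acacb form malonyl-CoA, and fatty acid synthase (Fasn) builds palmitate from it with NADPH, part of which comes from cytosolic malic enzyme (Me1). In liver the pathway is known for its induction after feeding by 2 transcription factors, SREBP-1c, encoded by Srebf1, and ChREBP, the glucose-responsive factor encoded by Mlxipl. Thrsp, also called Spot 14, is a small lipogenic protein that follows carbohydrate intake and thyroid hormone.

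All 9 genes had higher fitted expression with oligo-1, and none passed adjustment over all genes. Values were TPM, the share of a library's transcripts corrected for length, and tests were run with limma on log2(TPM + 1), so that fold changes are differences on that scale. Of 10455 genes tested, 0 had a limma p below 0.05 after Benjamini-Hochberg adjustment (0% of genes, smallest adjusted p 0.202). At an unadjusted p below 0.05, 7 of the 9 genes were higher, beside 1.81% of all tested genes, and 0 were lower, beside 4.25%. When the thresholds of the study were applied to the limma fit (fold over 1.5, p under 0.01 before adjustment), 3 genes were higher (Me1, Fasn and Acss2), beside 0.641% of all genes. The study's own list at these thresholds, fitted with edgeR, holds these genes and also Acaca and Slc25a1. In 4 genes, Me1, Fasn, Slc25a1 and Mlxipl, all 3 oligo-1 livers lay above all 4 controls, beside 2.00% of all genes, and no gene had the opposite arrangement, beside 4.98%. The median log2 fold change of the 9 genes was 0.91, and the median over all tested genes was -0.16.

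**Figure D1:**
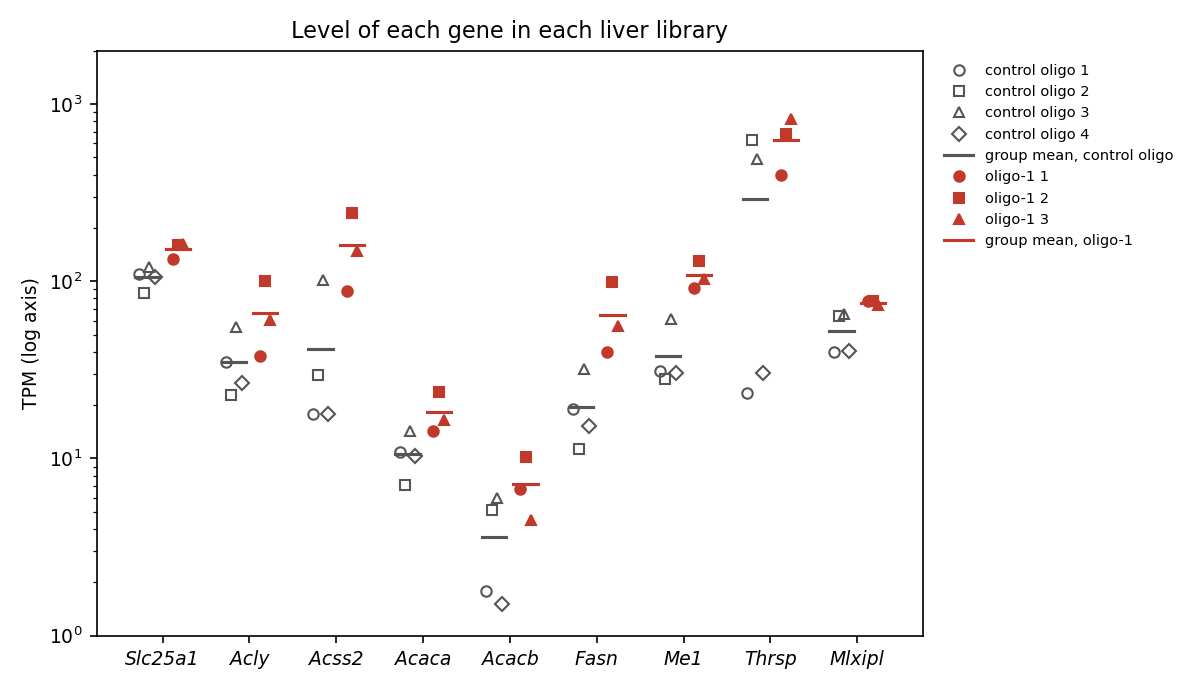
TPM of the 9 genes (log axis) in each liver library, with open grey symbols for the 4 controls, filled red symbols for the 3 oligo-1 livers and short lines for group means. The groups are separate for Slc25a1, Fasn, Me1 and Mlxipl, and Thrsp spans 23.5 to 625 TPM within the controls alone.

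The libraries differed within groups in ways that bear on these genes. Over the tested genes, the correlation of controls 1 and 4 was 0.988, that of either with the remaining 5 libraries was 0.928 to 0.947, and those 5 gave 0.965 to 0.987 among themselves. The summed TPM of 8 Kupffer cell and macrophage markers reached 304 in control 1 and 377 in control 4, whereas the remaining 5 libraries had 33.9 to 65.8. Stellate cell and fibroblast markers summed to 326 and 300 TPM in controls 1 and 4 (82.9 to 96.9 elsewhere), and red blood cell markers to 213 and 595 TPM (31.5 to 81.1 elsewhere). Male-biased liver genes were low in the same pair, with Hsd3b5, a steroid enzyme, at 0.48 and 0.14 TPM against 19.8 to 133 TPM elsewhere. Hepatocyte markers were abundant in every library, with Alb (albumin) between 32507 and 47095 TPM. Adipocytes also make the lipogenic enzymes, and of 7 adipocyte markers Lep was listed at 0 in all 7 libraries and Adipoq was at most 0.19 TPM. The fatty acid binding protein gene Fabp4 was at 8.10 to 30.5 TPM, highest in controls 1 and 4, and the lipase gene Lipe was at 3.65 to 11.5 TPM, lowest in the same pair. Fold changes that rest on controls 1 and 4, or on control 3, are given with and without them below.

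The promoters of 3 members are shown because they are the members whose 250 bases before the RefSeq start hold an E-box or several CCAAT boxes and lie outside all annotated exons. The windows are from RefSeq (GRCm38.p6, the build of the mm10 positions), in the direction of transcription, with matches to the E-box CACGTG and to the CCAAT box (CCAAT or its reverse complement ATTGG) in capitals.
Fasn, chr11:120824548-120824797, minus strand: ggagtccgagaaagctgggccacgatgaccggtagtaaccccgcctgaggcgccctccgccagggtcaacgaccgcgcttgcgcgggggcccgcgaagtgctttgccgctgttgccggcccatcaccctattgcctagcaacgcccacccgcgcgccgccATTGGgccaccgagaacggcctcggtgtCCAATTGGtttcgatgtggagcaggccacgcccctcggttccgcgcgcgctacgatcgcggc
Slc25a1, chr16:17928220-17928469, minus strand: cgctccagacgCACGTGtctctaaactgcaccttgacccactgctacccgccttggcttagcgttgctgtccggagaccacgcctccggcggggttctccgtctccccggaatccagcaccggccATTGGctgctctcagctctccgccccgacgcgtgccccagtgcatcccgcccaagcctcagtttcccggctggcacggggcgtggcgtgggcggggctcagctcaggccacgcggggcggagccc
Mlxipl, chr5:135089640-135089889, plus strand: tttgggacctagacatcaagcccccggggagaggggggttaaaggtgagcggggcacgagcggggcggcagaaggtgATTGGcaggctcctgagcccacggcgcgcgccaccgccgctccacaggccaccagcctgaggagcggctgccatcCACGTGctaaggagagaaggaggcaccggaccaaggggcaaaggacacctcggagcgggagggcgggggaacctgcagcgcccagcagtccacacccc
Fasn held 3 CCAAT matches, of which the 2 nearest to the start overlap in the palindrome CCAATTGG. Slc25a1 held CACGTG at 239 to 234 bases before the start and a CCAAT match at 125 to 121 bases. Mlxipl held CACGTG at 98 to 93 bases and a CCAAT match at 173 to 169 bases.

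The 9 genes have 11 such windows in the RefSeq table. Searched on both strands, the E-box CACGTG was present in 2 of them, beside 6.02% of 32851 windows of the same length, and both are shown above. The CCAAT box was present in 7 of the 11, for Acacb, Acss2, Fasn, Me1, Mlxipl, Slc25a1 and Thrsp, beside 33.8% of all windows. The SREBP consensus TCACNCCAC was present in 1, at a second start of Mlxipl, beside 1.05%. GGGCGG, the GC box that Sp1 binds, was present in 5, beside 32.7%. The windows of Acaca and Acacb lie inside the GENCODE gene spans, so other starts of these genes were not searched. A match is a description of the letters and not of binding.

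Citrate export was represented by Slc25a1 (chr16:17925223-17928219 in mm10), the mitochondrial citrate carrier. It was at 110, 85.7, 121 and 106 TPM in controls 1 to 4 and at 133, 159 and 161 TPM in oligo-1 livers 1 to 3. Every oligo-1 value was above every control value, and the distance between control 3 and oligo-1 liver 1 was smaller than the SD of the controls. The means were 106 ± 14.7 TPM (SD, n = 4) and 151 ± 15.8 TPM (SD, n = 3), and limma gave a log2 fold change of 0.52 (SE 0.17, 95% interval 0.14 to 0.90, limma adjusted p = 0.726). This was the smallest fold change among the 9 genes. It was 0.56 (SE 0.19) without controls 1 and 4.

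Acly and Acss2 supply cytosolic acetyl-CoA from citrate and from acetate. Acss2 (chr2:155517948-155585724) was at 17.8, 29.4, 101 and 17.9 TPM in controls 1 to 4 and at 87.8, 244 and 147 TPM in the oligo-1 livers. Control 3 lay above oligo-1 liver 1, and the other 3 controls were below all oligo-1 livers. The log2 fold change was 2.19 (SE 0.58, 95% interval 0.89 to 3.49, limma adjusted p = 0.457). Without control 3 it was 2.74 (SE 0.36) and passed adjustment over all genes (limma adjusted p = 0.0216), and without controls 1 and 4 it was 1.41 (SE 0.52). The span of Acss2 overlaps Gss on the opposite strand, and reads from shared exon bases, if any, cannot be told apart unless strand was used. The overlap is of whole gene spans with introns, and its share in exons was not examined. For Gss, limma gave -0.76 (SE 0.43).

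Acly (chr11:100476353-100528000) was at 35.1, 22.7, 55.6 and 26.7 TPM in controls 1 to 4 and at 37.8, 101 and 60.6 TPM in the oligo-1 livers. Oligo-1 liver 1 lay among the controls, below control 3 and just above control 1. The means were 35.01 ± 14.6 TPM (SD, n = 4) and 66.4 ± 31.9 TPM (SD, n = 3), and limma gave a log2 fold change of 0.88 (SE 0.37, 95% interval 0.04 to 1.71, limma adjusted p = 0.768). Leaving out oligo-1 liver 2, the highest library, gave 0.52, and leaving out control 3 gave 1.12 (SE 0.34). The value was 0.77 (SE 0.44) without controls 1 and 4.

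The malonyl-CoA step is carried out by 2 carboxylases with different locations. Acaca (ACC1) is the cytosolic form that feeds fatty acid synthesis, and Acacb (ACC2) lies at the outer mitochondrial membrane, where its malonyl-CoA restrains fatty acid uptake into mitochondria. Acaca (chr11:84129672-84401651) was at 10.9, 7.11, 14.3 and 10.4 TPM in controls 1 to 4 and at 14.2, 23.8 and 16.6 TPM in the oligo-1 livers. Control 3 and oligo-1 liver 1 were level, and the groups otherwise did not overlap. The log2 fold change was 0.73 (SE 0.26, 95% interval 0.13 to 1.32, limma adjusted p = 0.767), and 0.76 (SE 0.31) without controls 1 and 4. A gene model on the opposite strand, Gm11437, lies within the span of Acaca and differed in the same direction (log2 fold change 0.52, SE 0.25). Reads from shared exon bases, if any, cannot be told apart unless strand was used, and exon overlap was not examined.

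Acacb (chr5:114146535-114250761) was the least abundant member. It was at 1.79, 5.09, 6.00 and 1.505 TPM in controls 1 to 4 and at 6.72, 10.2 and 4.52 TPM in the oligo-1 livers. Controls 2 and 3 lay above oligo-1 liver 3, so the groups overlapped, and controls 1 and 4 formed the low end. The log2 fold change was 0.91 (SE 0.42, 95% interval -0.02 to 1.85, limma adjusted p = 0.768). Without controls 1 and 4 it was 0.26 (SE 0.30).

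Palmitate synthesis and its reductant gave the most separate values of the group. Fasn (chr11:120805846-120824547), the multifunctional enzyme that builds palmitate, was at 19.1, 11.3, 32.1 and 15.2 TPM in controls 1 to 4 and at 39.8, 98.9 and 56.1 TPM in the oligo-1 livers. All oligo-1 values were above all controls, with control 3 nearest. The ratio of the group means was 3.34, and the log2 fold change was 1.69 (SE 0.38, 95% interval 0.84 to 2.54, limma adjusted p = 0.368). It was 1.61 (SE 0.45) without controls 1 and 4 and 1.95 (SE 0.34) without control 3.

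Me1 (chr9:86581371-86695953) encodes the cytosolic malic enzyme, which converts malate to pyruvate and yields NADPH. It was at 31.1, 28.1, 61.5 and 30.4 TPM in controls 1 to 4 and at 91.5, 130.5 and 103 TPM in the oligo-1 livers. Controls 1, 2 and 4 were nearly equal, control 3 was about midway, and the oligo-1 livers were all higher. The means were 37.8 ± 15.9 TPM (SD, n = 4) and 108 ± 20.1 TPM (SD, n = 3), with a ratio of 2.87. The log2 fold change of 1.55 (SE 0.28, 95% interval 0.93 to 2.18, limma adjusted p = 0.202) had the smallest p of the 9 genes and rank 12 among all tested genes. Without control 3 it was 1.81 (SE 0.19) and passed adjustment over all genes (limma adjusted p = 0.00946), and without controls 1 and 4 it was 1.34 (SE 0.31, limma adjusted p = 0.190).

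**Figure D2:**
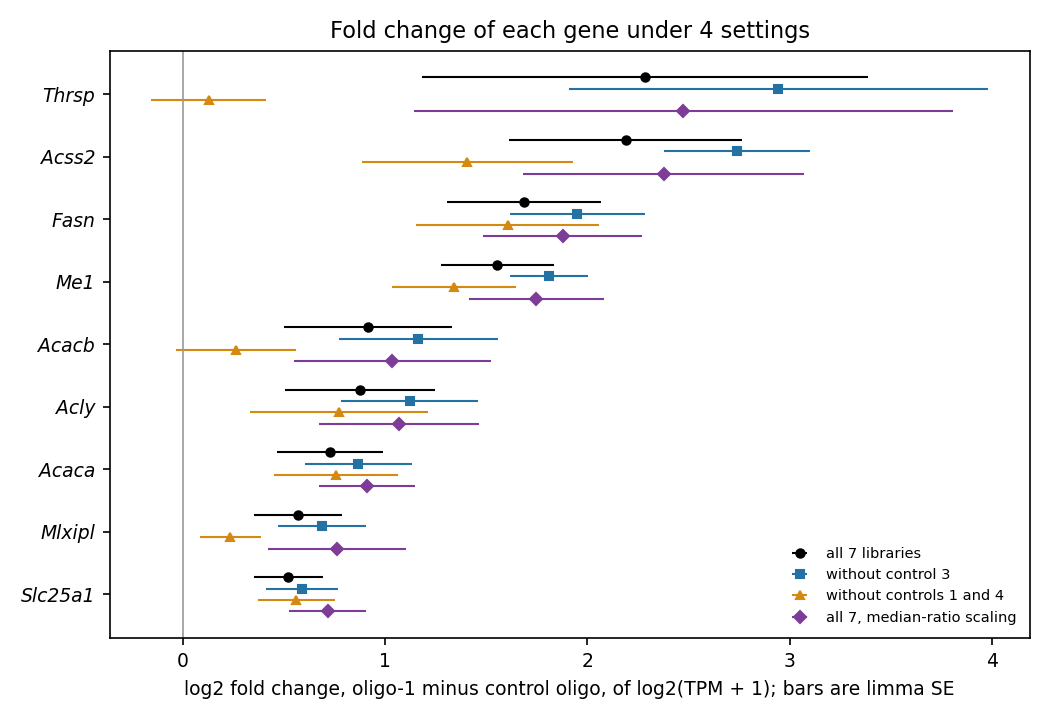
Log2 fold change (oligo-1 minus control oligo, on log2(TPM + 1)) of the 9 genes under 4 settings, with limma standard errors as bars. The points span 0.52 to 0.72 for Slc25a1, 0.73 to 0.91 for Acaca and 0.77 to 1.12 for Acly. They span 1.34 to 1.81 for Me1 and 1.61 to 1.95 for Fasn. Thrsp moves from 2.29 with all libraries to 0.13 without controls 1 and 4.

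For the regulators Thrsp and Mlxipl, as for Acss2 and Acacb, controls 1 and 4 were the lowest libraries. Thrsp (chr7:97412938-97417730) was at 23.5, 625, 488 and 30.6 TPM in controls 1 to 4 and at 397, 676 and 819 TPM in the oligo-1 livers. Controls 2 and 3 lay above oligo-1 liver 1, and controls 1 and 4 were far below all other libraries. The log2 fold change of 2.29 was the largest of the 9 genes but had the largest error (SE 1.11, 95% interval -0.20 to 4.77, limma adjusted p = 0.768). Without controls 1 and 4 it was 0.13 (SE 0.28), and without control 1 alone it was 1.505. The macrophage, stellate and red blood cell markers and the male-biased genes divided the libraries in the same way as Thrsp, and their part in its difference was not tested.

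Mlxipl (chr5:135089890-135138382) was at 39.7, 63.3, 65.4 and 40.5 TPM in controls 1 to 4 and at 77.0, 77.5 and 73.2 TPM in the oligo-1 livers. The 3 oligo-1 values were close to each other and above all controls, and controls 1 and 4 were again the lowest. The means were 52.2 ± 14.05 TPM (SD, n = 4) and 75.9 ± 2.34 TPM (SD, n = 3), and limma gave a log2 fold change of 0.57 (SE 0.22, 95% interval 0.08 to 1.06, limma adjusted p = 0.768). Without controls 1 and 4 it was 0.23 (SE 0.15), although all 3 oligo-1 livers remained above controls 2 and 3. An exact 2-sided permutation test over 7 libraries cannot give a p below 0.0571, the value reached by the 4 genes whose groups did not overlap.

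**Figure D3:**
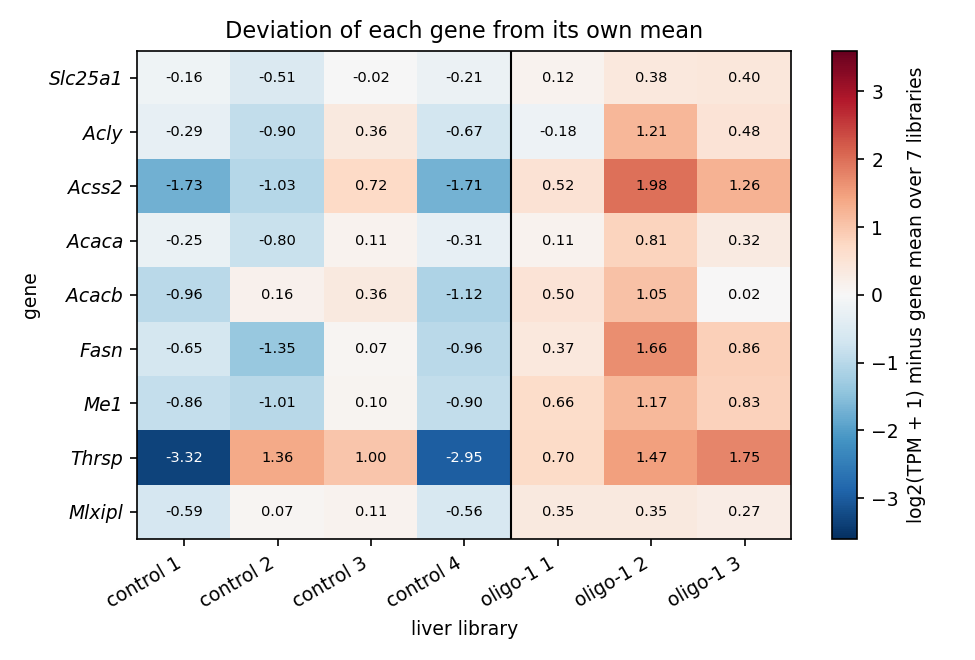
Deviation of log2(TPM + 1) from the mean of each gene over 7 libraries, by gene and library, with values printed in the cells. Controls 1 and 4 are below the mean for all 9 genes, Thrsp reaches -3.32 there, and oligo-1 liver 2 is above the mean for all 9 genes.

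Within the controls the 9 genes divided into 2 arrangements. In Thrsp, Acacb, Acss2 and Mlxipl both controls 1 and 4 were below both controls 2 and 3. In the other 5 genes, Slc25a1, Acly, Acaca, Fasn and Me1, control 2 was the lowest library. Control 3 was the highest control for 8 genes, all except Thrsp, and oligo-1 liver 2 was the highest of all libraries for 7, all except Thrsp and Slc25a1. The mean deviation of the 9 genes on the log2 scale was -0.98, -0.45, 0.31 and -1.04 in controls 1 to 4 and 0.35, 1.12 and 0.69 in the oligo-1 livers, so control 3 was nearly level with oligo-1 liver 1. Without control 3 the oligo-1 livers were above all remaining controls in 7 genes, beside 3.53% of all tested genes, and without controls 1 and 4 in 4, beside 17.8%.

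Ratios within a library do not depend on how the library was scaled, and 4 were compared. The Fasn to Acaca ratio of TPM was 1.76, 1.59, 2.25 and 1.46 in controls 1 to 4 and 2.79, 4.16 and 3.38 in the oligo-1 livers. The groups did not overlap, with a difference in mean log2 ratio of 0.96 (exact permutation p = 0.0571, 0.114 adjusted over the 4 ratios), and the difference lay between 0.82 and 1.105 whichever library was left out. The Acly to Acss2 ratio was 1.98, 0.77, 0.55 and 1.49 in controls 1 to 4 and 0.43, 0.41 and 0.41 in the oligo-1 livers. All controls were above the oligo-1 livers, in which the ratio hardly varied, and the difference was -1.34 (exact permutation p = 0.0571, 0.114 adjusted), or -0.64 without controls 1 and 4. Acss2 was thus more abundant than Acly in all oligo-1 livers and in controls 2 and 3, and less abundant in controls 1 and 4.

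The ratios of the carboxylases and of reductant supply to synthase overlapped between groups. The Acaca to Acacb ratio was 6.05 and 6.90 in controls 1 and 4, 1.40 and 2.38 in controls 2 and 3, and 2.12, 2.32 and 3.67 in the oligo-1 livers. The difference was -0.39 (exact permutation p = 0.514, 0.514 adjusted) and turned to 0.52 without controls 1 and 4. The Me1 to Fasn ratio was 1.63 to 2.48 in controls and 1.32 to 2.30 in the oligo-1 livers, a difference of -0.16 (exact permutation p = 0.514, 0.514 adjusted), which was 0.05 without oligo-1 liver 2.

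**Figure D4:**
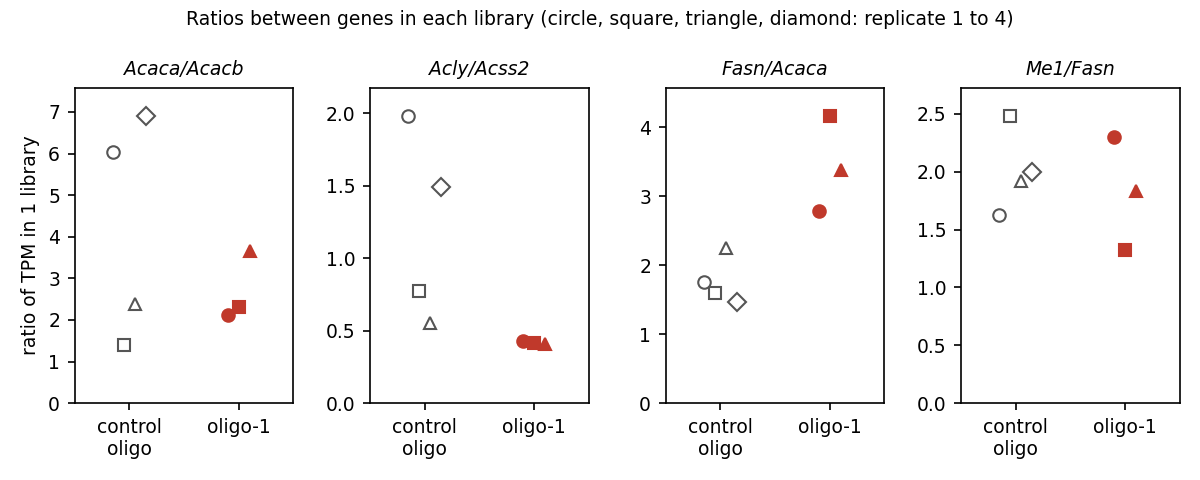
Ratio of TPM of 2 genes within each library, for 4 gene pairs, with open grey symbols for controls and filled red symbols for oligo-1 livers. Fasn/Acaca is 1.46 to 2.25 in controls and 2.79 to 4.16 with oligo-1, and Acly/Acss2 is 0.41 to 0.43 in the oligo-1 livers.

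Other sources of NADPH were examined beside Me1. Over all tested genes, 1.81% were higher and 4.25% lower at an unadjusted p below 0.05, with a median log2 fold change of -0.16. These values stand beside the counts and medians of each gene list below. Of 6 tested NADPH genes, 1 was higher at that threshold and 0 were lower, with a median of -0.05. The higher gene was G6pdx, which encodes the first enzyme of the pentose phosphate pathway and was between 1.38 and 4.28 TPM in control livers, and between 5.47 and 10.2 TPM in oligo-1 livers (log2 fold change 1.25, SE 0.33, limma adjusted p = 0.450). The more abundant Idh1, the cytosolic isocitrate dehydrogenase, was between 131 and 190 TPM in control livers, and between 161 and 206 TPM in oligo-1 livers (0.22, SE 0.17). Me2, a mitochondrial malic enzyme, was between 0.42 and 1.43 TPM in control livers, and between 0.43 and 0.58 TPM in oligo-1 livers (-0.41, SE 0.24). Only control libraries carried Me2 past the filter on low values, so its sign follows in part from the filter. Among 4 genes of the non-oxidative pentose phosphate branch, Tkt (transketolase) was higher at the unadjusted threshold (0.65, SE 0.26), and the median was 0.00.

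Regulators of the pathway differed in both directions. Of 12 tested genes, 5 were higher and 1 was lower at an unadjusted p below 0.05, and the median log2 fold change was 0.12. The higher genes included Srebf1, between 21.6 and 44.7 TPM in control livers, and between 45.8 and 82.1 TPM in oligo-1 livers (0.71, SE 0.29, limma adjusted p = 0.768), and Insig1 (1.27, SE 0.23), whose protein retains SREBPs in the endoplasmic reticulum. The others were Srebf2 (0.63, SE 0.22), Scap (0.46, SE 0.20) and Ppargc1b (0.57, SE 0.26). Insig2, the second retention gene, was lower (-1.22, SE 0.28). Mlx, the obligate partner of ChREBP, was between 18.1 and 23.2 TPM in control livers, and between 19.0 and 19.3 TPM in oligo-1 livers (-0.08, SE 0.17).

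Genes of glucose and fructose use that are known ChREBP targets gave 2 higher and 1 lower of 10 at the unadjusted threshold, with a median of 0.12. Pklr, liver pyruvate kinase, was at 34.1, 39.4, 108 and 22.4 TPM in controls 1 to 4 and at 132, 219 and 121 TPM with oligo-1 (log2 fold change 1.81, SE 0.46, limma adjusted p = 0.450). Control 3 was again the control nearest to the oligo-1 livers. Without it, limma gave 2.25 (SE 0.29, adjusted p = 0.0216), and without controls 1 and 4 the value was 1.20 (SE 0.40). Khk, ketohexokinase, was lowest in control 1 (215 TPM) and control 4 (234 TPM), and the remaining 5 libraries had 478 to 759 TPM (0.83, SE 0.35). For Khk, limma gave 0.21 (SE 0.20) without controls 1 and 4. G6pc, the glucose-6-phosphatase of glucose release, was lower (-0.70, SE 0.25).

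Control of the carboxylases gave 1 higher gene of 8 tested, with a median of -0.06. It was Mid1ip1, a paralog of Thrsp whose protein binds acetyl-CoA carboxylase, at 12.7, 8.44, 21.3 and 12.2 TPM in controls 1 to 4 and 23.1, 36.4 and 26.4 TPM with oligo-1 (log2 fold change 1.06, SE 0.30, limma adjusted p = 0.549). Unlike Thrsp, Mid1ip1 was not low in controls 1 and 4 relative to control 2. The AMPK subunits Prkaa1 (-0.42, SE 0.23) and Prkag2 (-0.41, SE 0.24) did not pass the unadjusted threshold, nor did Mlycd, which removes malonyl-CoA (0.04, SE 0.17).

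The mitochondrial supply of citrate and pyruvate gave no gene past the unadjusted threshold in either direction among 12 tested, and the median was -0.05. Cs, citrate synthase, was between 28.6 and 48.1 TPM in control livers, and between 35.5 and 56.2 TPM in oligo-1 livers (log2 fold change 0.21, SE 0.23). The smallest p belonged to Dld (-0.37, SE 0.22), Mpc1 (-0.27, SE 0.17) and Slc25a11 (0.24, SE 0.17). Mitochondrial type II fatty acid synthesis, a separate pathway that makes lipoic acid precursors, likewise had 0 of 6 genes past the threshold and a median of -0.22, with Cbr4 (-0.45, SE 0.40) and Mecr (-0.32, SE 0.28) having the smallest p. Among 4 other genes of acetyl-CoA and acetoacetate activation, Aacs, the cytosolic acetoacetyl-CoA synthetase, was higher at 16.7 to 26.96 TPM against 6.32 to 15.7 TPM (0.99, SE 0.32).

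The steps after palmitate had 3 higher genes and 0 lower of 11 tested at the unadjusted threshold, with a median of 0.41. These were Pnpla3, a lipid droplet protein (log2 fold change 1.40, SE 0.28), Elovl6, which elongates palmitate (1.26, SE 0.35), and Scd1, the desaturase of saturated fatty acids (1.46, SE 0.55). Pnpla3 was between 0.17 and 0.999 TPM in control livers, and between 1.80 and 4.31 TPM in oligo-1 livers, so that only the oligo-1 libraries carried it past the filter on low values and its count as higher follows in part from the filter. Without it, 2 of 10 genes were higher, with a median of 0.39.

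**Figure D5:**
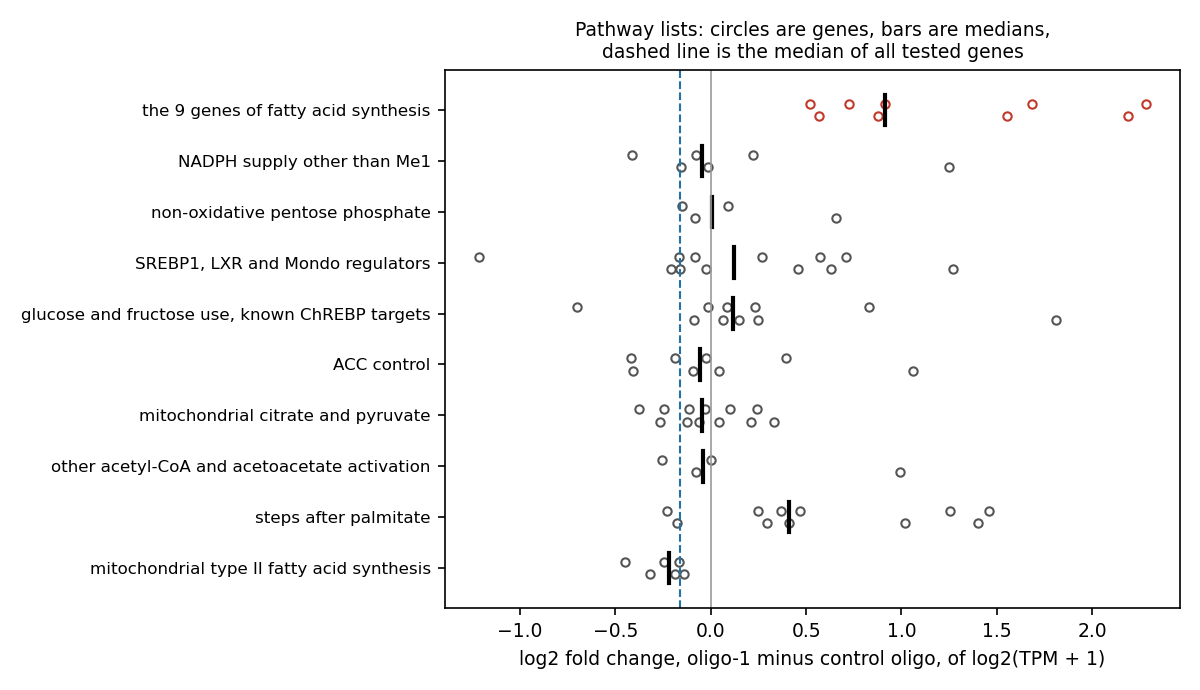
Log2 fold change (oligo-1 minus control oligo, on log2(TPM + 1)) of the 9 genes and of the tested genes of 9 pathway lists, with circles for genes, black bars for medians and a dashed line at -0.16, the median of all tested genes. The 9 genes lie between 0.52 and 2.29, and the medians of the 9 lists lie between -0.22 and 0.41.

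Genes with the most similar pattern were sought by Pearson correlation with the mean deviation of the 9 genes over 7 libraries. The 5 genes outside the 9 with the highest correlation were Pklr (r = 0.978), Hcn3 (0.974), Sucnr1 (0.969), Iqcb1 (0.963) and Tm7sf2 (0.962). These values describe a selection from 10455 genes and carry no test. Hcn3 overlaps Pklr on the opposite strand over 711 bases of the gene spans. Reads from shared exon bases there, if any, cannot be told apart unless strand was used. Tm7sf2, a sterol reductase gene, was at 34.96, 57.6, 113 and 29.8 TPM in controls 1 to 4 and at 102, 123 and 139 TPM with oligo-1. Among the 9 genes themselves, the correlation of each with the mean of the other 8 was highest for Acss2 (0.993) and lowest for Thrsp (0.711).

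Markers of the fasted state differed beside the lipogenic genes. At an unadjusted p below 0.05, 0 of 6 genes were higher and 4 were lower (Igfbp1, Pdk4, G6pc and Ppargc1a). Of all tested genes, 1.81% were higher and 4.25% lower. The median of the 6 genes was -0.62, beside -0.16 over all tested genes. Pdk4, which restrains pyruvate oxidation in fasting, was at 9.21, 10.2, 1.31 and 9.78 TPM in controls 1 to 4 and at 1.30, 1.14 and 1.63 TPM in the oligo-1 livers, so control 3 stood with the oligo-1 livers (log2 fold change -1.64, SE 0.52). Igfbp1, an insulin-repressed gene, had 126 TPM in control 3 and 449 to 552 TPM in the remaining controls, and the oligo-1 livers had 77.8 to 125 TPM (-1.76, SE 0.46). Without control 3, limma gave -2.19 for Pdk4 (SE 0.22, adjusted p = 0.00778) and -2.24 for Igfbp1 (SE 0.21, adjusted p = 0.00697). Without controls 1 and 4 the values were -1.11 (SE 0.54) and -1.22 (SE 0.45). Pck1, the gluconeogenic enzyme, was between 1286 and 1612 TPM in control livers, and between 1207 and 1427 TPM in oligo-1 livers (-0.14, SE 0.15). The part of feeding state in the differences of the 9 genes was not tested.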

How the data were processed

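Total RNA was extracted from liver with TRIzol, sequenced by the standard Illumina procedure and, per the methods of the study, quantified with kallisto (version not given in the sources used here). The submitters' processing notes name mm10. The authors deposited TPM values per gene symbol, and the listed genes summed to 85.8% to 88.3% of the full TPM scale. TPM keeps no depth, and the depth of the libraries is therefore unknown, which leaves counting error without an estimate. Control 3 had 13046 genes above 0 TPM, and the remaining libraries had 15261 to 16089. Whether control 3 differed in depth was not tested. Strand use is not stated.

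The 10455 genes that reached 1 TPM in 3 or more libraries were tested on log2(TPM + 1) with limma-trend (limma 3.58.1, R 4.3.3), 2-sided, without covariates, because the count model of the study does not apply to TPM. All 9 members passed that filter, and so did the lists' genes described as tested. P-values were adjusted by the Benjamini-Hochberg method over all tested genes. In simulated libraries of this comparison (10455 genes), the test recovered 47% of genes given a log2 change of 1. For a log2 change of 2 the share was 98%. The same simulation held both sizes, and 10 unchanged genes were called in it. In the real libraries the test called 0 genes, and neither Acss2 (2.19) nor Thrsp (2.29) passed. Controls 1 and 4 stood apart there (correlation 0.928 to 0.947 with the remaining libraries). The simulated shares are therefore not an estimate of power in the real libraries. Ratios used exact permutation tests (scipy 1.17.1). Each library is 1 mouse according to the study, the labels give no further detail on the replicates, and no libraries held identical values. Gene positions are from GENCODE M21.

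The members and lists were chosen with earlier results of these data known. Named genes are the members, up to 3 genes of smallest p per list (for the pathway lists and fasted-state genes, all those passing the unadjusted threshold) and the 5 of most similar pattern. Srebf2, Scap, Srebf1, Ppargc1b, Insig2, Mlx, Mlycd, Cs, Pck1, Alb, Lep, Adipoq and Gss were named for their roles or library values, after these had been seen. Hepatocyte markers gave 1 gene higher (Ttr) and 2 lower (Tat and Cps1) at the unadjusted threshold, fed-state genes 2 higher (Pklr and Srebf1), male-biased genes 2 higher (Hsd3b5 and Elovl3), and adipocyte and macrophage markers 0 in either direction. Marker lists of endothelial, stellate, cholangiocyte and red blood cells gave 0 genes higher and 1 lower (Lyve1). Alternatives were another pseudocount, no filter, 2 scalings, leaving out libraries and a replicate block. The values of Khk, Pklr, Pdk4 and Igfbp1 without controls, and of the steps after palmitate without Pnpla3, were added after seeing the data. 1 gene of a pathway list is not reported here.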

Additional observations from a re-analysis of the deposited data

Results flagged for a closer look

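In 6 of 66 genes examined, 1 control lay far from the other 3 (gap over range above Dixon's 95% critical value for 4 samples). The genes examined were the members, up to 3 genes of smallest p per list and the 5 of most similar pattern, and not all of them are named above. For independent normal values that happens in about 1 in 20 groups. These genes vary together and many were chosen by their values in these libraries, so the count cannot be set against that rate. In 5 of the 6 genes the library was control 3, which also had the fewest genes above 0 TPM (13046). Me1 was at 61.5 TPM there against 28.1 to 31.1 TPM in the other controls, and Acss2 was at 101 TPM against 17.8 to 29.4 TPM. Elovl6 was at 22.3 TPM against 7.07 to 9.09 TPM, Hcn3 was at 6.54 TPM against 1.04 to 1.96 TPM, and Pdk4 was at 1.31 TPM against 9.21 to 10.2 TPM. Tat, a liver aminotransferase, was at 2174 TPM in control 1 against 1727 to 1768 TPM in the other controls.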

How the results depend on the processing

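All 9 members kept a positive log2 fold change under every alternative run. Their median was 0.91 and lay between 0.65 (without oligo-1 liver 2) and 1.22 (without oligo-1 liver 1) when 1 library was left out, and at 0.76 without controls 1 and 4, 1.07 after median-ratio scaling and 1.14 with a pseudocount of 0.1. Median-ratio scaling moved the median of all genes from -0.16 to 0.01, and the members passing the fold rule from 3 to 5, while the share of all tested genes passing it went from 0.641% to 1.14%. With that scaling, 6 members were higher at the unadjusted threshold, and the share of all tested genes went from 1.81% to 4.95%. Lower genes at that threshold went from 444 to 376. The oligo-1 livers lay above all controls in 5 members, and that share went from 2.00% to 5.15%. Leaving out 1 library, limma called 0 to 29 genes and 0 to 2 members at the adjusted threshold, the 29 and the 2 (Me1 and Acss2) without control 3. The fold rule then gave 2 to 6 members, the unadjusted threshold 3 to 9 (3 without oligo-1 liver 2, 9 without control 3), and the oligo-1 livers lay above all controls in 4 to 8 members (7 without control 3, 8 without oligo-1 liver 1). With 1 library left out, the share of all tested genes was 0.309% to 1.1% for the fold rule, 1.03% to 2.64% for the unadjusted threshold and 2.51% to 4.15% for oligo-1 above all controls. Without controls 1 and 4, limma called 1 gene and 0 members. The Acaca to Acacb log2 ratio difference lay between -0.82 and -0.05 with 1 library left out and turned to 0.52 without controls 1 and 4, where that of Acly to Acss2 was -0.64, and the Me1 to Fasn difference lay between -0.35 and 0.0511 (without oligo-1 liver 2, the only reversal with 1 library left out). The causes of these shifts were not tested. Replicate numbers 1 to 3 occur in both groups, and the labels do not say that they pair the mice. Deviations of same-numbered libraries had correlations of 0.08, -0.02 and -0.11, and those of differently numbered libraries -0.13 to 0.14. So few correlations cannot decide whether mice were paired. With the replicate block, limma called 86 genes and 4 members (Acss2 at adjusted p = 4.94e-05, Me1 at 0.000729, Fasn at 0.00187 and Thrsp at 0.00377), and the median was 0.78. In that fit control 4 has no partner and so does not bear on the folds. The block terms leave few of the 7 libraries free to estimate error, and the SE of Thrsp was 0.34, against 1.11 in the main fit. Since no pairing of the mice by number is stated, these p-values are not evidence of a difference. With 4 against 3 libraries of unknown depth, low genes such as Acacb have the least precise values.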
